A study of Homo sapiens with 6 samples.

Results

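The E2F transcription factors and the RB pocket proteins form the switch that decides whether a cell copies its DNA. RNA levels are described here for 9 genes of that switch, taken by gene name from the 28752 genes of the deposited table: the activators E2F1, E2F2 and E2F3, the repressors E2F4, E2F7 and E2F8, and the pocket proteins RB1, RBL1 and RBL2. All 9 were in the table, and all 9 were among the 16458 genes with enough counts to be tested. The cells were SH-SY5Y, a human neuroblastoma line that stands for a tumour of the sympathetic nervous system. One group of 3 libraries came from cells transfected with OE-circSHPRH and the other group of 3 from cells transfected with OE-NC, each harvested for total RNA after 72 h. The labels spell out neither OE nor NC, so OE-NC is taken as the negative control and OE-circSHPRH as overexpression of circ-SHPRH, a circular RNA made from the SHPRH gene. Both groups are the same line with no label of a genotype or clone, and every library is a bulk sample of a transfected culture.

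E2F proteins bind DNA near the start sites of genes for DNA synthesis and cell division, the typical E2Fs as partners of a DP protein. In resting cells the pocket proteins sit on E2Fs and recruit enzymes that close chromatin, RB1 mainly on the activator E2Fs and the relatives RBL1 (p107) and RBL2 (p130) mainly on E2F4. Cyclin-dependent kinases (CDKs) phosphorylate the pocket proteins and free the E2Fs, and p21, the CDK inhibitor encoded by CDKN1A, opposes that step. E2F7 and E2F8 are atypical: they bind DNA without a DP partner or a pocket protein and silence E2F targets late in S phase. Several genes of the switch, E2F1 among them, are themselves E2F targets. The series title ties the peptide encoded by circ-SHPRH to p21 and to the CDKs, so the comparison asks how the RNA of the switch downstream of the CDKs differed between the groups.

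The promoters of the genes were read for E2F letters, because several genes of the switch are themselves E2F targets. Promoter windows of 300 bases (250 before to 50 after a transcript start, RefSeq, GRCh38.p14) were found for 8 of the 9 genes, and they were searched on both strands for TTTCCCGC, TTTGGCGC, TTTCGCGC and TTTGCCGC. Any of these was present in 3.31% of the 35116 promoter windows of the RefSeq table. Counted by gene, as the 8 genes are here, 705 of the 10858 tested genes with a promoter held any of them. E2F1, E2F2, E2F3 and RBL1 held at least 1 match. The stretches with the matches are shown 5′ to 3′ on the gene's strand with the E2F letters in capitals, for E2F1 from chr20:33686378-33686438 (minus strand), for E2F2 from chr1:23531248-23531295 (minus strand), for E2F3 from chr6:20401806-20401853 (plus strand) and for RBL1 from chr20:37095986-37096043 (minus strand).
E2F1: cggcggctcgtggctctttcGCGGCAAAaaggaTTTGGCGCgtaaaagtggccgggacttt
E2F2: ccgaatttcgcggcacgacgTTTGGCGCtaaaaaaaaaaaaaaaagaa
E2F3: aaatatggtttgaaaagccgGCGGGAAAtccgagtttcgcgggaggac
RBL1: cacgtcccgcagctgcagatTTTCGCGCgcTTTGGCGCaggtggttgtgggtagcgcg
E2F1 had a pair of matches in opposite orientation and RBL1 a pair in the same orientation. The letters TTTGGCGC, found in 0.652% of all windows, occurred in E2F1, E2F2 and RBL1. The matches of all 4 genes lay close to the start: their first base was between -53 and -16 relative to it.

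**Figure D1:**
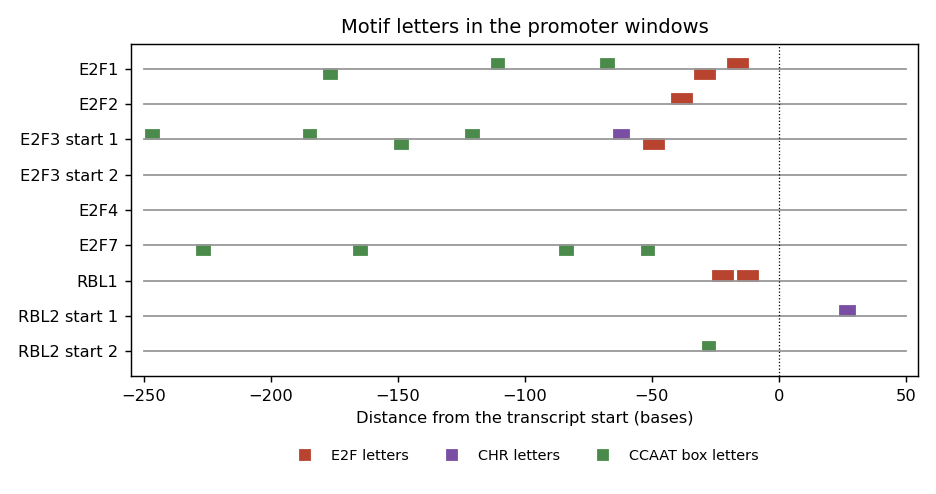
Motif letters in 9 RefSeq promoter windows of the E2F and pocket protein genes (x axis: distance from the transcript start in bases; one line per window; boxes above a line are matches on the gene's strand and boxes below it on the other strand). E2F letters (red) appear in the windows of E2F1, E2F2, E2F3 start 1 and RBL1, all between -53 and the start.

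No match was found in the windows of E2F4, E2F7, RBL2 or the second start of E2F3. The transcript starts of the RBL2 windows lay 494 and 1642 bases inside the gene as the table places it, and the second E2F3 start 1708 bases inside. The start of the single RB1 window lay 172724 bases inside the gene, so that window does not cover the gene's main start and is not drawn. The CCAAT box, in 34.6% of all windows, occurred 3 times in E2F1, 4 times in E2F3, 4 times in E2F7 and once in 1 RBL2 window. The CHR letters TTTGAA, in 15.2% of all windows and bound by the MuvB complex that joins E2F4 and the pocket proteins in DREAM, occurred in 1 window each of E2F3 and RBL2. A match of letters is a description of the window and not a binding site, and none of these windows says anything of binding in these cells.

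The libraries held 15645261 to 17591718 counts each, so 1 count equals 0.0568 to 0.0639 CPM (counts scaled to the library total). SHPRH, the host gene, went from 25.1 ± 1.83 to 72.9 ± 8.90 CPM (SD, n = 3 each) and CDKN1A from 768 ± 3.08 to 1032 ± 39.0 CPM (SD, n = 3 each). The SHPRH counts are of the whole gene and do not separate circular from linear RNA. All 9 listed markers of neuroblastoma cells were above 1 FPKM (reads scaled to gene length and to 1 factor per library) in every library. Their summed level was 1342 to 1353 FPKM in OE-NC and 1407 to 1438 FPKM in OE-circSHPRH, which did not overlap, and its part in the results was not tested. Of the 8 markers of other cell types 5 were in the table used. COL1A2, ALB and PECAM1, listed for fibroblasts, liver and vessels, had under 10 counts in every library. The other collagen, COL1A1, had 449 to 571 counts per library and the epithelial marker EPCAM 22 to 39. The summed level of the markers of other cells was 3.30 to 4.15 FPKM in OE-NC and 3.87 to 4.10 FPKM in OE-circSHPRH, most of it COL1A1. The share of counts from mitochondrially encoded genes split the libraries across the groups. A low share (10.2% to 10.3%) was found in replicates 1 and 2 of OE-NC with replicate 3 of OE-circSHPRH, and a high share (11.4% to 12.1%) in the other 3 libraries.

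The levels of the 9 genes spanned a 27.7-fold range in OE-NC cells. Compared per length, with the deposited FPKM, E2F4 stood highest at 44.9 ± 0.650 FPKM and E2F3 followed at 21.5 ± 0.586 FPKM (SD, n = 3 each). RB1 was next at 15.1 ± 0.550 FPKM and E2F1 had 11.5 ± 0.325 FPKM (SD, n = 3 each). These 4 genes cover each class of the switch: a repressor E2F, 2 activator E2Fs and the main pocket protein. RBL2 had 6.32 ± 0.142 FPKM, E2F2 had 4.44 ± 0.448 FPKM and RBL1 had 3.23 ± 0.234 FPKM (SD, n = 3 each). The atypical E2Fs closed the order, E2F8 with 1.64 ± 0.216 FPKM and E2F7 with 1.62 ± 0.0598 FPKM (SD, n = 3 each). Neighbours in the order were separated in every OE-NC library, by ratios of means of 1.31 (RB1 over E2F1) to 2.09 (E2F4 over E2F3), except E2F8 and E2F7, whose ranges overlapped. In OE-circSHPRH the order was the same except that E2F7 and E2F8 changed places.

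**Figure D2:**
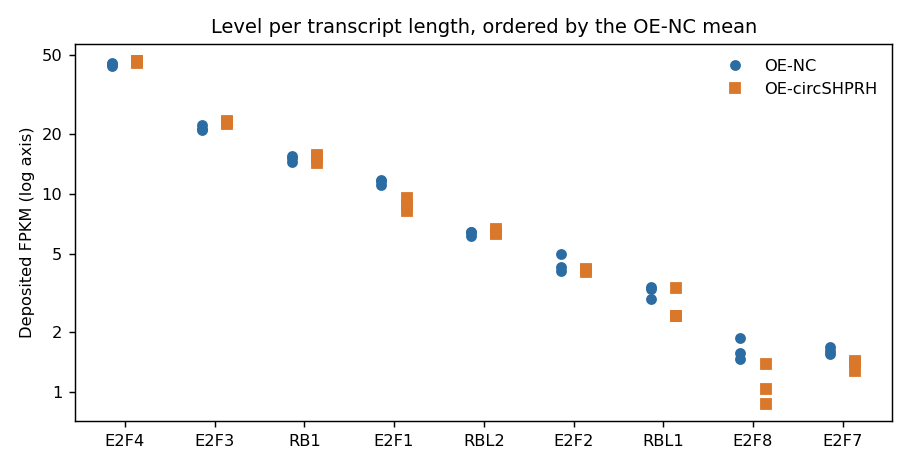
Deposited FPKM (y axis, log scale) of the 9 genes in each library, ordered by the OE-NC mean (blue circles: 3 OE-NC libraries; orange squares: 3 OE-circSHPRH libraries). E2F4 is highest at 44.9 FPKM in OE-NC, E2F7 and E2F8 are lowest near 1.6 FPKM, and the groups are farthest apart, as a ratio of means, for E2F8 and E2F1; they do not overlap for E2F3, E2F4 and E2F7 either.

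None of the 9 genes passed the test between OE-circSHPRH and OE-NC (edgeR's quasi-likelihood test, Benjamini-Hochberg adjustment over 16458 genes at 0.05). DESeq2 and limma-voom also called 0, with 5 of the 9 given no adjusted p by DESeq2. Over all genes tested 0.188% were called, 0.128% as higher and 0.0608% as lower in OE-circSHPRH. At an unadjusted p under 0.05, E2F1 and E2F8 were lower, against 5.02% of all genes in that direction. The 9 log2 fold changes ran from -0.58 to 0.09 with a median of -0.11, beside a median of 0.0018 over all genes. Levels of the groups did not overlap for 5 of the 9 genes, which was so for 15.6% of all genes. E2F1, E2F7 and E2F8 were lower in every OE-circSHPRH library (7.57% of all genes) and E2F3 and E2F4 higher (7.99% of all genes). In bulk RNA a change in the share of cycling cells and a change of RNA per cell cannot be told apart, and the labels do not say that the 3 libraries of a group came from separate cultures, so p-values measure the spread between these libraries, which may be technical.

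**Figure D3:**
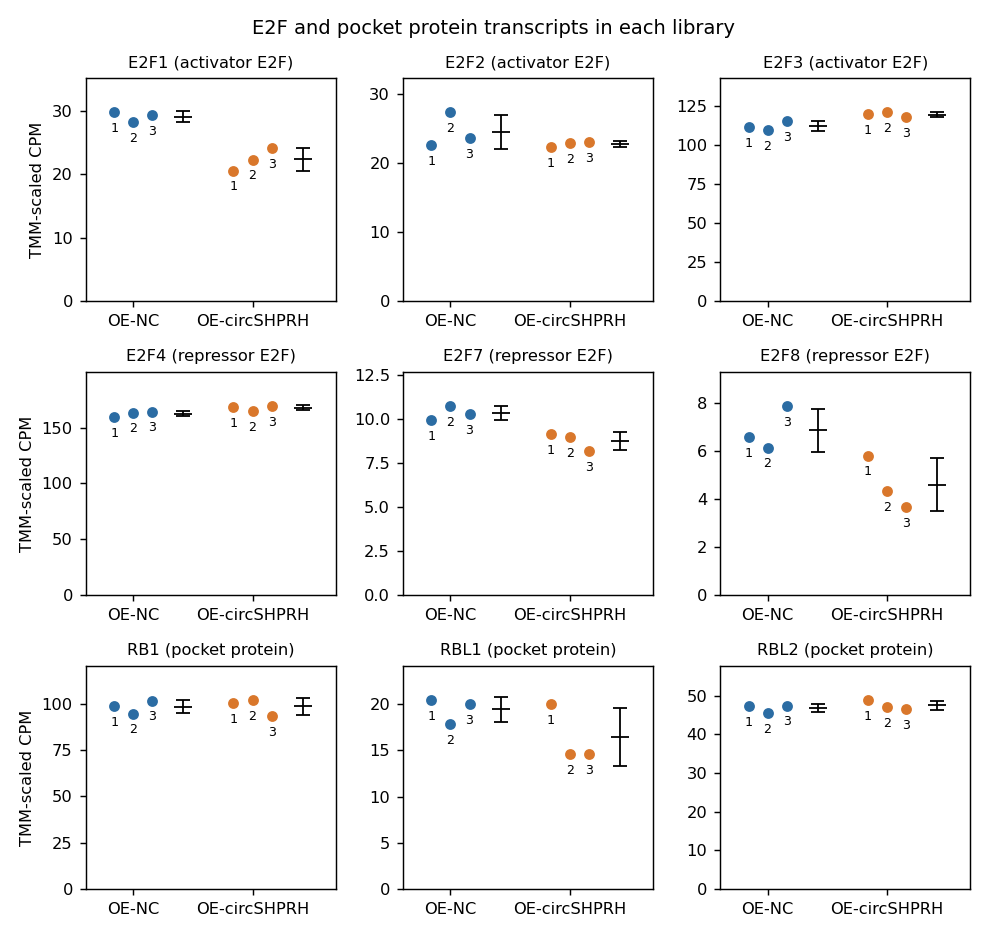
TMM-scaled CPM (y axis, from 0) of each gene in every library (points numbered by replicate; bars: mean and SD of 3 libraries). OE-circSHPRH libraries lie below all OE-NC libraries for E2F1, E2F7 and E2F8, above them for E2F3 and E2F4, and overlap them for E2F2, RB1, RBL1 and RBL2.

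E2F1, the activator best known for driving entry into S phase, was 0.769 of its control level. Its gene (ENSG00000101412, chromosome 20, 33675683 to 33686404, minus strand, GRCh38) has a single annotated transcript in GENCODE 29. E2F1 had 470, 495 and 514 counts in OE-NC replicates 1 to 3, or 29.7, 28.2 and 29.3 CPM, and 350, 346 and 403 counts in OE-circSHPRH replicates 1 to 3, or 20.6, 22.3 and 24.2 CPM. The lowest OE-NC library lay above the highest OE-circSHPRH library, and OE-circSHPRH replicate 3 came closest to the controls. The means were 29.1 ± 0.803 and 22.4 ± 1.80 CPM (SD, n = 3 each), a log2 fold change of -0.38 with a standard error of 0.080 (95% interval of the fold, 0.685 to 0.863). Its p of 0.00014 was the 40th smallest among 16458 genes and gave an adjusted p of 0.057 by edgeR, just short of the threshold. The log2 fold change ranged from -0.44 to -0.32 over 12 alternatives. DESeq2 gave E2F1 no adjusted p. Over the 11 alternatives with an adjusted p it ranged from 0.0045 to 0.342, and E2F1 passed in 3 of them: without a filter on low counts (adjusted p = 0.00496), without OE-circSHPRH replicate 3 (adjusted p = 0.00451) and with a term for the mitochondrial share (adjusted p = 0.0226), all by edgeR. Compared only among low-share libraries, E2F1 differed by -0.26 in mean log2 CPM, and among high-share libraries by -0.45. In every such comparison, here and below, OE-circSHPRH replicate 3 alone stands for its group at low share. At high share OE-NC replicate 3 alone stands for its group. In the authors' deposited table E2F1 had a log2 fold change of -0.38 and a p of 0.00034, with an adjusted p of 1. In the same comparison by the authors E2F3, with a larger p of 0.0997, had a smaller adjusted p of 0.641. The 1 may therefore stand for a value not given, and it is not read as a result.

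E2F2, an activator most studied in blood cells, did not differ beyond the spread between libraries. Its gene (ENSG00000007968) spans chromosome 1, 23506430 to 23531220, on the minus strand. E2F2 had 22.6, 27.3 and 23.5 CPM in OE-NC replicates 1 to 3 and 22.3, 22.8 and 23.0 CPM in OE-circSHPRH replicates 1 to 3. The groups overlapped, and OE-NC replicate 2 alone stood above the other 5 libraries by more than 3 CPM. The fold was 0.928 with a 95% interval of 0.819 to 1.05 (log2 fold change -0.11, SE 0.086, edgeR adjusted p = 0.718).

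E2F3, the activator with the highest RNA level here, was 1.07 of its control level. Its gene (ENSG00000112242, chromosome 6, 20401906 to 20493715, plus strand) has separate starts that give a long and a short protein form, and the gene counts sum over both. E2F3 had 111, 109.9 and 116 CPM in OE-NC replicates 1 to 3 and 119.8, 121 and 118 CPM in OE-circSHPRH replicates 1 to 3. All OE-circSHPRH libraries were above all OE-NC libraries, the nearest pair being 116 and 118 CPM. The log2 fold change was 0.09 (SE 0.046, 95% interval of the fold 0.997 to 1.14), with an adjusted p of 0.511 by edgeR.

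The 3 activators did not share the sign of their log2 fold change, but none of them passed the test. Their shares of the summed FPKM are described here and were not tested. The shares are parts of one whole, so a lower E2F1 share by itself raises the others. Ratios with E2F1 on top, here and below, reuse the same E2F1 values. No share over all genes is given beside the overlap of such shares and ratios. E2F1 made up 30.7% ± 0.827 of the summed activator FPKM in OE-NC and 24.6% ± 1.57 in OE-circSHPRH, while E2F3 made up 57.4% ± 0.805 and 63.9% ± 1.57 (SD, n = 3 each). The E2F2 share was 11.8% ± 1.28 and 11.5% ± 0.0216 (SD, n = 3 each). The E2F1 share was below the control range in every OE-circSHPRH library, the E2F3 share above it, and the E2F2 shares overlapped. The ratio of E2F1 to E2F3 in FPKM was 0.551, 0.529 and 0.523 in OE-NC replicates 1 to 3 and 0.354, 0.381 and 0.422 in OE-circSHPRH replicates 1 to 3. The summed activator FPKM was 37.5 ± 0.509 in OE-NC and 35.9 ± 0.613 in OE-circSHPRH (SD, n = 3 each), a ratio of 0.958 with no overlap.

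E2F4, the repressor that carries pocket proteins to promoters in resting cells, was the most abundant of the 9 genes and nearly level between the groups. Its gene (ENSG00000205250) spans chromosome 16, 67192169 to 67198918, on the plus strand. E2F4 had 159.8, 163.5 and 164 CPM in OE-NC replicates 1 to 3 and 169, 165 and 169 CPM in OE-circSHPRH replicates 1 to 3. The OE-circSHPRH libraries were all higher, the nearest pair (165 and 164 CPM) by less than 1 CPM. The fold was 1.03 with a 95% interval of 0.970 to 1.10 (log2 fold change 0.04, SE 0.042, edgeR adjusted p = 0.788).

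E2F7, an atypical repressor, had few counts and was lower in every OE-circSHPRH library. Its gene (ENSG00000165891) spans chromosome 12, 77021247 to 77065580, on the minus strand. E2F7 had 157, 188 and 180 counts in OE-NC replicates 1 to 3, or 9.94, 10.7 and 10.3 CPM, and 155, 139 and 136 counts in OE-circSHPRH replicates 1 to 3, or 9.11, 8.97 and 8.16 CPM. The groups did not overlap, with OE-circSHPRH replicate 3 lowest. The fold was 0.848 with a 95% interval of 0.713 to 1.01 (log2 fold change -0.24, SE 0.12, edgeR adjusted p = 0.513).

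E2F8, the other atypical repressor, had the lowest counts and the lowest fold of the 9 genes. Its gene (ENSG00000129173) spans chromosome 11, 19224063 to 19241620, on the minus strand. E2F8 had 104, 108 and 138 counts in OE-NC replicates 1 to 3, or 6.58, 6.15 and 7.88 CPM, and 99, 67 and 61 counts in OE-circSHPRH replicates 1 to 3, or 5.82, 4.32 and 3.66 CPM. The groups did not overlap, but OE-circSHPRH replicate 1 was within 1 CPM of the controls and 1.46-fold above the mean of replicates 2 and 3. The means were 6.87 ± 0.899 and 4.60 ± 1.11 CPM (SD, n = 3 each), a fold of 0.671 with a 95% interval of 0.518 to 0.868 (log2 fold change -0.58, SE 0.18, edgeR adjusted p = 0.228). The log2 fold change ran from -0.79 to -0.43 over the same 12 alternatives, and of the 11 with an adjusted p (DESeq2 gave none) E2F8 passed in 1, with the term for the mitochondrial share (log2 fold change -0.70, edgeR adjusted p = 0.0385). E2F8 differed by -0.78 among low-share and by -0.64 among high-share libraries.

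Set against each other, activators and repressors did not separate in a common direction. The mean log2 CPM of the 3 activators minus that of the 3 repressors was 0.94, 0.98 and 0.85 in OE-NC replicates 1 to 3 and 0.86, 1.08 and 1.22 in OE-circSHPRH replicates 1 to 3. The groups overlapped, since OE-circSHPRH replicate 1 lay inside the control range and replicates 2 and 3 above it. The group means were 0.92 ± 0.06 and 1.05 ± 0.18 (SD, n = 3 each), a difference of 0.13 that was 0.22 without OE-circSHPRH replicate 1 and 0.05 without replicate 3. It was 0.26 among low-share and 0.12 among high-share libraries. A score over these genes carries no p here, because the genes were chosen with earlier results of the same data known.

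The repressors were not one group. Against E2F4 alone, the activators had a mean log2 CPM of -1.91 ± 0.02 in OE-NC and -2.09 ± 0.05 in OE-circSHPRH (SD, n = 3 each), lower in all 3 OE-circSHPRH libraries. Against the atypical E2F7 and E2F8, they had 2.34 ± 0.09 and 2.62 ± 0.25 (SD, n = 3 each), which overlapped. The sign of the activator to repressor contrast thus depended on which repressors were counted. In FPKM the repressor sum was dominated by E2F4 and overlapped between the groups (48.2 ± 0.807 and 48.8 ± 0.734, SD, n = 3 each), whereas the atypical sum was lower in OE-circSHPRH without overlap (3.26 ± 0.206 and 2.47 ± 0.337, SD, n = 3 each). The ratio of E2F1 to E2F4 in FPKM was 0.256 ± 0.00980 in OE-NC and 0.191 ± 0.0151 in OE-circSHPRH (SD, n = 3 each), also without overlap.

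**Figure D4:**
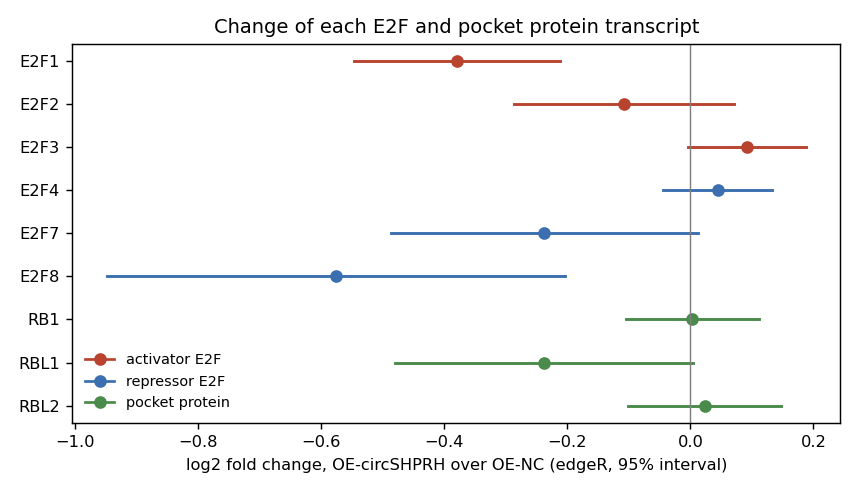
Log2 fold change of OE-circSHPRH over OE-NC (x axis) with its 95% interval from edgeR for each gene, coloured by class. The intervals of E2F1 (-0.38) and E2F8 (-0.58) lie below 0, an activator and a repressor, and the other 7 intervals include 0.

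Among the pocket proteins, RB1, the retinoblastoma tumour suppressor, was at the same level in both groups within the spread. Its gene (ENSG00000139687) spans chromosome 13, 48303726 to 48599436, on the plus strand. RB1 had 98.8, 94.6 and 101.6 CPM in OE-NC replicates 1 to 3 and 100.4, 101.9 and 93.3 CPM in OE-circSHPRH replicates 1 to 3. The groups overlapped fully, and the highest and the lowest library were both OE-circSHPRH. The fold was 1.002 with a 95% interval of 0.930 to 1.08 (log2 fold change 0.0031, SE 0.052, edgeR adjusted p = 0.993). RCBTB2 and LPAR6 lie within RB1 on the other strand with counts equal to 5.63% and 0.610% of those of RB1, and whether strand was used in counting is not given in the sources used here.

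RBL1, the pocket protein p107 and itself a known E2F target, was the least even of the 9 genes within OE-circSHPRH after E2F8. Its gene (ENSG00000080839) spans chromosome 20, 36996349 to 37095995, on the minus strand. RBL1 had 323, 313 and 350 counts in OE-NC replicates 1 to 3, or 20.4, 17.8 and 19.98 CPM, and 341, 226 and 244 counts in OE-circSHPRH replicates 1 to 3, or 20.1, 14.6 and 14.6 CPM. OE-circSHPRH replicate 1 lay among the controls, 1.37-fold above the mean of replicates 2 and 3, which were both below every control. The fold was 0.848 with a 95% interval of 0.717 to 1.003 (log2 fold change -0.24, SE 0.12, edgeR adjusted p = 0.492). The log2 fold change was -0.41 without OE-circSHPRH replicate 1 (edgeR adjusted p = 0.139) and -0.16 without replicate 3. RBL1 differed by -0.38 among low-share and by -0.22 among high-share libraries.

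RBL2, the pocket protein p130 that holds E2F4 targets silent in resting cells, was nearly level. Its gene (ENSG00000103479) spans chromosome 16, 53433977 to 53491649, on the plus strand. RBL2 had 47.2, 45.6 and 47.4 CPM in OE-NC replicates 1 to 3 and 48.9, 47.0 and 46.6 CPM in OE-circSHPRH replicates 1 to 3. The groups overlapped, and all 6 libraries lay within 3.3 CPM of each other. The fold was 1.02 with a 95% interval of 0.933 to 1.11 (log2 fold change 0.02, SE 0.059, edgeR adjusted p = 0.937). AKTIP on the other strand shares 610 bases with the end of RBL2 and had counts equal to 54.3% of those of RBL2, so reads in that stretch cannot be told apart without strand. The ratio of RBL1 to RBL2 in FPKM was 0.510 ± 0.0264 in OE-NC and 0.424 ± 0.0697 in OE-circSHPRH (SD, n = 3 each) and overlapped, while that of E2F1 to RB1 was 0.763 ± 0.0164 and 0.587 ± 0.0725 and did not.

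None of the other E2Fs, DP partners, CDKs and cyclins listed passed the test. E2F5, a pocket-bound repressor, E2F6, a repressor that works with Polycomb proteins, and the DP partners TFDP1 and TFDP2 had log2 fold changes of -0.01, -0.03, -0.06 and 0.0038, and 0 of these 4 passed by edgeR, DESeq2 or limma-voom or at an unadjusted p under 0.05. TFDP2 was the most abundant of them by count, at 157 CPM in both groups. Of 9 CDKs and cyclins that phosphorylate pocket proteins or bind those kinases, 0 passed by any of these tools, 3 had an unadjusted edgeR p under 0.05 (10.3% of all genes did, in either direction), and the median log2 fold change was 0.05. Those 3 were CCND1, the D cyclin that opens phosphorylation of RB1 (0.11, SE 0.040, adjusted p = 0.333), CDK4, its kinase (-0.10, SE 0.043, adjusted p = 0.396), and CCNE2, an E cyclin and E2F target (-0.44, SE 0.20, adjusted p = 0.456), by edgeR. CDK6 was the most abundant, at 619 CPM in OE-NC and 652 CPM in OE-circSHPRH.

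CDKN1A, which encodes p21, was the 1 of 6 tested CDK inhibitors that rose (log2 fold change 0.43, SE 0.040, edgeR adjusted p = 1.44e-05). Over all genes 0.128% rose. CDKN1B, which encodes p27, had 0.07 (adjusted p = 0.612), and CDKN2D, an inhibitor of CDK4 and CDK6, had 0.20 (adjusted p = 0.804), by edgeR. Of 13 corepressors that pocket proteins recruit, 0 passed by edgeR, DESeq2 or limma-voom, 1 had an unadjusted edgeR p under 0.05, and their log2 fold changes lay between -0.07 and 0.09 with a median of 0.01. That one was RBBP4, a histone-binding subunit also of MuvB (0.09, edgeR adjusted p = 0.467). SMARCA4, a chromatin remodelling ATPase, had -0.07 (adjusted p = 0.614), and SIN3A, a scaffold of histone deacetylase complexes, had 0.06 (adjusted p = 0.792), by edgeR. Of 7 genes of the MuvB core, its partner MYBL2 and the DREAM kinase DYRK1A, MYBL2 fell and the median was -0.06. Over all genes 0.0608% fell. MYBL2, the B-MYB factor that replaces E2F4 and pocket proteins on MuvB in dividing cells, had 95.2 ± 2.65 CPM in OE-NC and 78.3 ± 2.03 CPM in OE-circSHPRH (SD, n = 3 each). Its log2 fold change was -0.28 (SE 0.050, edgeR adjusted p = 0.0213), and the adjusted p reached 0.231 over 12 alternatives, above the threshold without OE-circSHPRH replicate 2, without any one of the OE-NC libraries and with the replicate number as a block. LIN37, a MuvB subunit, had -0.41 (SE 0.22, edgeR adjusted p = 0.535).

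**Figure D5:**
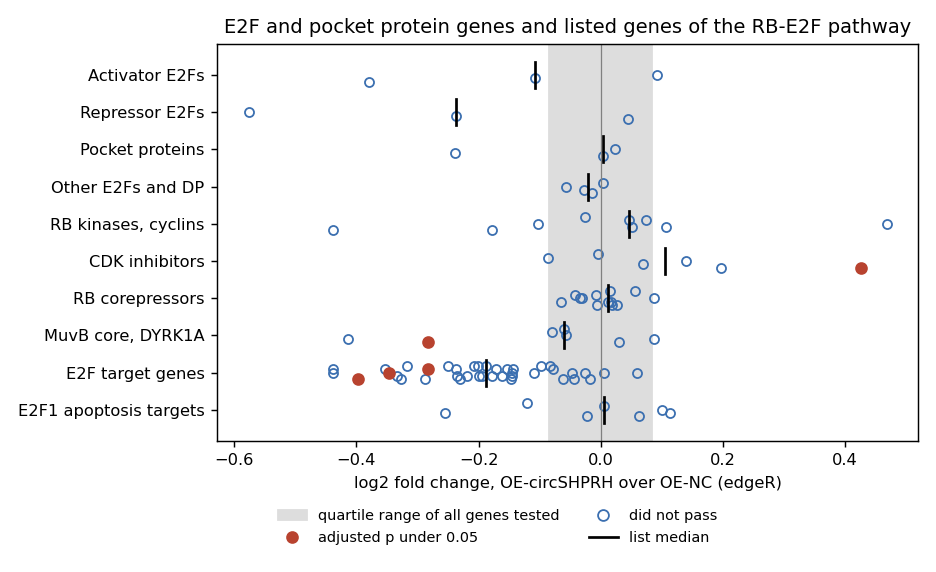
Log2 fold changes of OE-circSHPRH over OE-NC (x axis, edgeR) for the 9 genes by class and for the listed genes of the pathway (circles: genes; red: adjusted p under 0.05; black bars: medians; grey band: the range between the quartiles of all genes tested, -0.0841 to 0.0844). The E2F target genes lie mostly below the band with a median of -0.19, and the corepressors other than RBBP4 (0.09) and the DP partners lie inside it.

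The genes that E2Fs switch on were mostly lower. Of 39 tested genes of a list of 40 E2F targets of S phase, 37 had a negative log2 fold change (94.9%, against 49.2% of all genes). The median was -0.19, and 3 fell and 0 rose by edgeR, against 0.0608% and 0.128% of all genes. In 21 of the 39 (53.8%) every OE-circSHPRH library was below every OE-NC library, against the 7.57% of all genes, and in 0 above. The genes that fell were MCM5 and MCM2, subunits of the replicative helicase, and MYBL2, which is in both lists. MCM5 went from 50.8 ± 1.74 to 38.6 ± 1.15 CPM (log2 fold change -0.40, SE 0.061, edgeR adjusted p = 0.00625), and MCM2 from 63.6 ± 2.40 to 49.99 ± 1.03 CPM (log2 fold change -0.35, SE 0.057, edgeR adjusted p = 0.014), SD and n = 3 throughout. Both kept their sign in 12 alternatives and lost the call without OE-NC replicate 1, without OE-circSHPRH replicate 2 and with the replicate number as a block, MCM5 also without OE-NC replicate 2. With 1 library left out, the number of targets that fell was 0 without OE-NC replicate 1 or OE-circSHPRH replicate 2. It was 1 without OE-NC replicate 2 and 2 without OE-NC replicate 3. It stayed at 3 without OE-circSHPRH replicate 1 and was 6 without OE-circSHPRH replicate 3. MCM7, another helicase subunit, was the most abundant, at 328 and 297 CPM (-0.14, edgeR adjusted p = 0.155). The 2 genes with positive values were TYMS, thymidylate synthase (0.06), and EZH2, the Polycomb methyltransferase (0.0060). Among low-share libraries 36 of the 39 differences were negative (median -0.22), and among high-share libraries 34 were (median -0.16). The low-share differences rest on OE-circSHPRH replicate 3 alone for its group, and the high-share ones on OE-NC replicate 3 alone. No share over all genes is given beside these counts. The list was known from earlier results of these data to lean downward, so its lean is a description.

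The pro-apoptotic targets of E2F1 gave no such pattern. Of 7 tested, 0 passed by edgeR, DESeq2 or limma-voom or at an unadjusted p under 0.05, and the median log2 fold change was 0.0051. TP73, the p53 relative induced by E2F1, had -0.26 (SE 0.15, adjusted p = 0.591), and BCL2L11, which encodes the BH3 protein BIM, 0.10 (adjusted p = 0.608), by edgeR. PMAIP1, which encodes the BH3 protein NOXA, was the most abundant and had -0.02.

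Genes with a profile like that of E2F1 over the 6 libraries were looked up as a description. Likeness was the root mean square difference of centred log2 CPM over the 6 libraries, searched over 13515 genes of at least 1 mean log2 CPM, and its median over those genes was 0.224. The closest were MIEF2, a mitochondrial fission adaptor (0.0347), the antisense RNA gene DDX11-AS1 (0.0396), DHRS2, a short-chain dehydrogenase (0.0542), the helicase gene MCM2 (0.0563) and LRRC61, a leucine-rich repeat gene (0.0569). These 5 were chosen for that likeness out of all genes searched. Of them, MCM2 passed the test and the other 4 did not, with edgeR adjusted p of 0.0537 (LRRC61), 0.139 (DHRS2), 0.327 (MIEF2) and 0.58 (DDX11-AS1). Among the E2F and pocket protein genes E2F7 was nearest at 0.145 and E2F8 farthest at 0.292. E2F8 was lowest in OE-circSHPRH replicate 3, the library of that group in which E2F1 was highest.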

How the data were processed

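RNA sequencing counts of 6 SH-SY5Y libraries (3 OE-NC, 3 OE-circSHPRH) were analysed. The authors deposited 1 table of raw read counts per gene, without normalization. Beside them the authors deposited FPKM values, which were proportional to count over gene length in each library. A normalized count signal was deposited too, each count divided by 1 size factor per library (0.934 to 1.06), and was not used further. The deposited log2 fold changes and p-values are the authors' own comparison. The sources used here do not give the aligner, the counter, the use of strand or the authors' test. The submitters' processing notes name GRCh37, but all 28752 deposited gene coordinates equal those of GENCODE 29 on GRCh38, and GRCh38 is used here.

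Genes were filtered with filterByExpr (minimum count 10, minimum total 15), which kept 16458 genes with 99.8% of the counts. They were scaled by TMM and tested with edgeR 4.0.16 (glmQLFit, glmQLFTest, two-sided, group as the only term, Benjamini-Hochberg at 0.05). The biological coefficient of variation was 5.36%. Standard errors are the absolute log2 fold change over the square root of F, and log2 CPM used a prior count of 2. The code was tested on simulated data. Alternatives were RLE scaling, no filter, DESeq2 1.42.0, limma-voom (limma 3.58.1), each library left out, a replicate block, a term for the mitochondrial share (split at 10.83%), and for scores a prior count of 0.5. For level order TPM was tried. No promoter of E2F8 was matched.

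The 9 genes, the lists and the tests were chosen with earlier results of these data known. From each list the text names genes that passed, up to 3 with the smallest p and the one with the highest CPM, with the 5 genes most like E2F1. TYMS and EZH2 were named after their values were seen. Some listed genes are not reported here.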

Additional observations from a re-analysis of the deposited data

How the results depend on the processing

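Over 12 alternatives 8 of the 9 genes kept the sign of their log2 fold change, and RB1, at 0.0031, kept it in 8 of 12. Without the filter on low counts 194 genes were called (116 higher, 78 lower), 1 of the 9 genes (E2F1) and 7 E2F targets. DESeq2 called 62 genes (38 higher, 24 lower), and with the term for the mitochondrial share 171 genes were called (104 higher, 67 lower), 2 of the 9 genes (E2F1 and E2F8) and 9 E2F targets. With each library left out in turn, 5 to 311 genes were called (4 to 142 higher, 1 to 169 lower), 0 to 1 of the 9 genes and 0 to 6 E2F targets. The number of genes was 6, 11 and 19 without OE-NC replicates 1, 2 and 3, and 24, 5 and 311 without OE-circSHPRH replicates 1, 2 and 3. The cause was not tested. RLE scaling and limma-voom gave counts within 1.5 times those reported, and the difference of activators and repressors stayed between 0.05 and 0.22. TPM gave the same level order as FPKM, but it divides the same counts by the same gene lengths. The order within a library could therefore not differ, and TPM does not test it. Replicate numbers gave no sign of pairing: same-numbered libraries had correlations of deviations of -0.0445, -0.0266 and -0.106. Differently numbered libraries had -0.0405 to 0.0845. With 3 libraries per group these values cannot exclude a batch shared by number. With the replicate block 6 genes were called (4 higher, 2 lower), 0 of the 9 genes and 0 E2F targets. The counts of E2F7 and E2F8 (61 to 188 per library) limit what can be seen of them: their 95% intervals span 0.713 to 1.01 and 0.518 to 0.868.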

Other observations

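Promoters across the genome were read for the same E2F letters, a search chosen after values were seen. Of 10858 tested genes with a RefSeq promoter, 705 held the letters. Of those 57.2% had a negative log2 fold change, 12.9% were lower in every OE-circSHPRH library, 3 fell and 0 rose, with a median of -0.02. Of the 10153 without the letters 48.8% were negative, 7.37% were lower in every OE-circSHPRH library, 4 fell and 12 rose, with a median of 0.0025. Among listed E2F targets with a promoter, 17 of 19 with the letters and 16 of 16 without were negative, with a median of -0.17 in both, while 13 of 19 and 4 of 16 were lower without overlap. The 705 genes include those 19 targets and E2F1, E2F2, E2F3 and RBL1, and the 10153 include the 16. The comparison across the genome is therefore not separate from the target list.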
